A study of Homo sapiens with 6 samples.

Results

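The genes described here are 44 genes of protein folding, N-glycan processing and quality control in the endoplasmic reticulum (ER), taken by gene symbol from the 58243 genes of the deposited count table. All 44 were found, each in a single row, and all 44 passed the filter on low counts and were tested. They were measured by RNA sequencing in cells labelled Hep3B, a human hepatocellular carcinoma line, grown in medium with fetal bovine serum. Of 6 libraries, 3 came from cells transfected with si-SNHG17-1, one short double-stranded RNA (siRNA) that targets SNHG17, a long noncoding RNA, and 3 from cells transfected with si-NC, the control siRNA. The comparison asks which of these genes differ between cells given si-SNHG17-1 and cells given si-NC. With a single siRNA against SNHG17, an effect of lower SNHG17 and an effect of the siRNA sequence itself cannot be told apart. The labels give no time after transfection. They also leave unstated if each replicate was its own culture, and every p-value is then only against the spread of these libraries, possibly a technical one.

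The ER is where secreted and membrane proteins are threaded into the lumen through the Sec61 channel, folded, and given N-linked glycans by oligosaccharyltransferase. Glucosidases I and II trim the new glycan so that the lectin chaperones calnexin and calreticulin can hold the protein, UGGT puts a glucose back on proteins that are still misfolded, and mannosidases mark those that fail for ER-associated degradation. When unfolded protein builds up, the sensors IRE1, ATF6 and PERK raise the genes of chaperones and folding enzymes, which is the unfolded protein response. Hepatocytes secrete much of the protein of blood plasma and depend on this machinery.

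The total of counts per library ranged from 30207055 to 42271168, and a floor of 3 counts lay between 0.0712 and 0.0977 CPM (each count scaled to a common library total of 1e6), a limit that covers counting error only. Correlations of log2 CPM were 0.966 to 0.973 within groups and 0.953 to 0.965 between them, and si-NC replicate 1 lay farthest out on the first and second principal components, as si-SNHG17-1 replicate 3 did on the third. SNHG17 stood at 22.4, 22.8 and 23.9 CPM in si-NC and at 8.03, 8.02 and 8.27 CPM in si-SNHG17-1, which left 35.2% of the control level (log2 fold change −1.51, standard error 0.12, adjusted p = 0.00101). Of 15 markers of hepatocytes and hepatoma cells, 12 stayed under 1 CPM of the total in every library. TTR and GPC3 were at 0 counts in all 6, and AFP did not exceed 0.216 CPM, so the defining markers of the labelled cell type were nearly absent. The summed level of these 15 markers was 6.27 to 7.29 CPM in si-NC and 6.22 to 8.44 CPM in si-SNHG17-1. Of 10 markers of other cell types, PTPRC, KRT5, EPCAM and COL1A2 stayed under 1 CPM in every library, COL1A2 at 0 in all 6, and the summed level of the 10 was 788 to 1155 CPM in si-NC and 977 to 1092 CPM in si-SNHG17-1. VIM, common in cultured cells, made up most of that sum and overlapped between the groups. CD68 (32.0035 to 37.6 CPM in si-NC against 41.8 to 60.7), COL1A1 (79.4 to 84.04 against 97.3 to 118), ACTA2 (13.1 to 16.3 against 17.9 to 18.0) and CDH5 (1.14 to 2.44 against 5.23 to 6.88) were higher in every si-SNHG17-1 library than in any si-NC library. PECAM1 was lower in each of them (0.991 to 1.93 against 0.423 to 0.913 CPM). Of all genes tested, 16.4% lay wholly above and 17.3% wholly below the si-NC range, with TMM scaling, which the marker values do not have. The part of these markers, and of cell identity, in the results below was not tested. In bulk RNA, a different number of cells of a kind and a different amount of RNA per cell cannot be told apart.

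Of the 44 genes, 7 were higher and 1 was lower after si-SNHG17-1 at an adjusted p under 0.05 (edgeR quasi-likelihood test, Benjamini-Hochberg over 18679 genes), and 36 were not called. That is 18.2% called, where 10.5% of all genes tested were called, 5.25% higher and 5.21% lower. The 44 genes were chosen with earlier results of these data known, and no genes of like abundance were compared, so these shares are no test of the pathway. The 7 that rose were GANAB, PDIA4, CALR, MANF, HYOU1, CRELD2 and HSPA5, and the gene that fell was DERL2. All 8 called genes had no overlap between the groups. A further 11 genes lay wholly above and 4 wholly below the si-NC range without a call, so 18 of 44 lay above and 5 below, against 16.4% and 17.3% of all genes tested. The median log2 fold change was 0.08 over the 44 genes and −0.0017 over all genes tested. GANAB was the only one of the 8 called genes at 2-fold or more, a size that 1.2% of all tested genes reached as higher calls and 1.9% as calls in either direction. The counts over all genes moved with the libraries: 980 were higher and 974 lower with all 6, and with 1 left out they ran from 313 and 264 (without si-SNHG17-1 replicate 1) to 694 and 705 (without si-NC replicate 1).

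**Figure D1:**
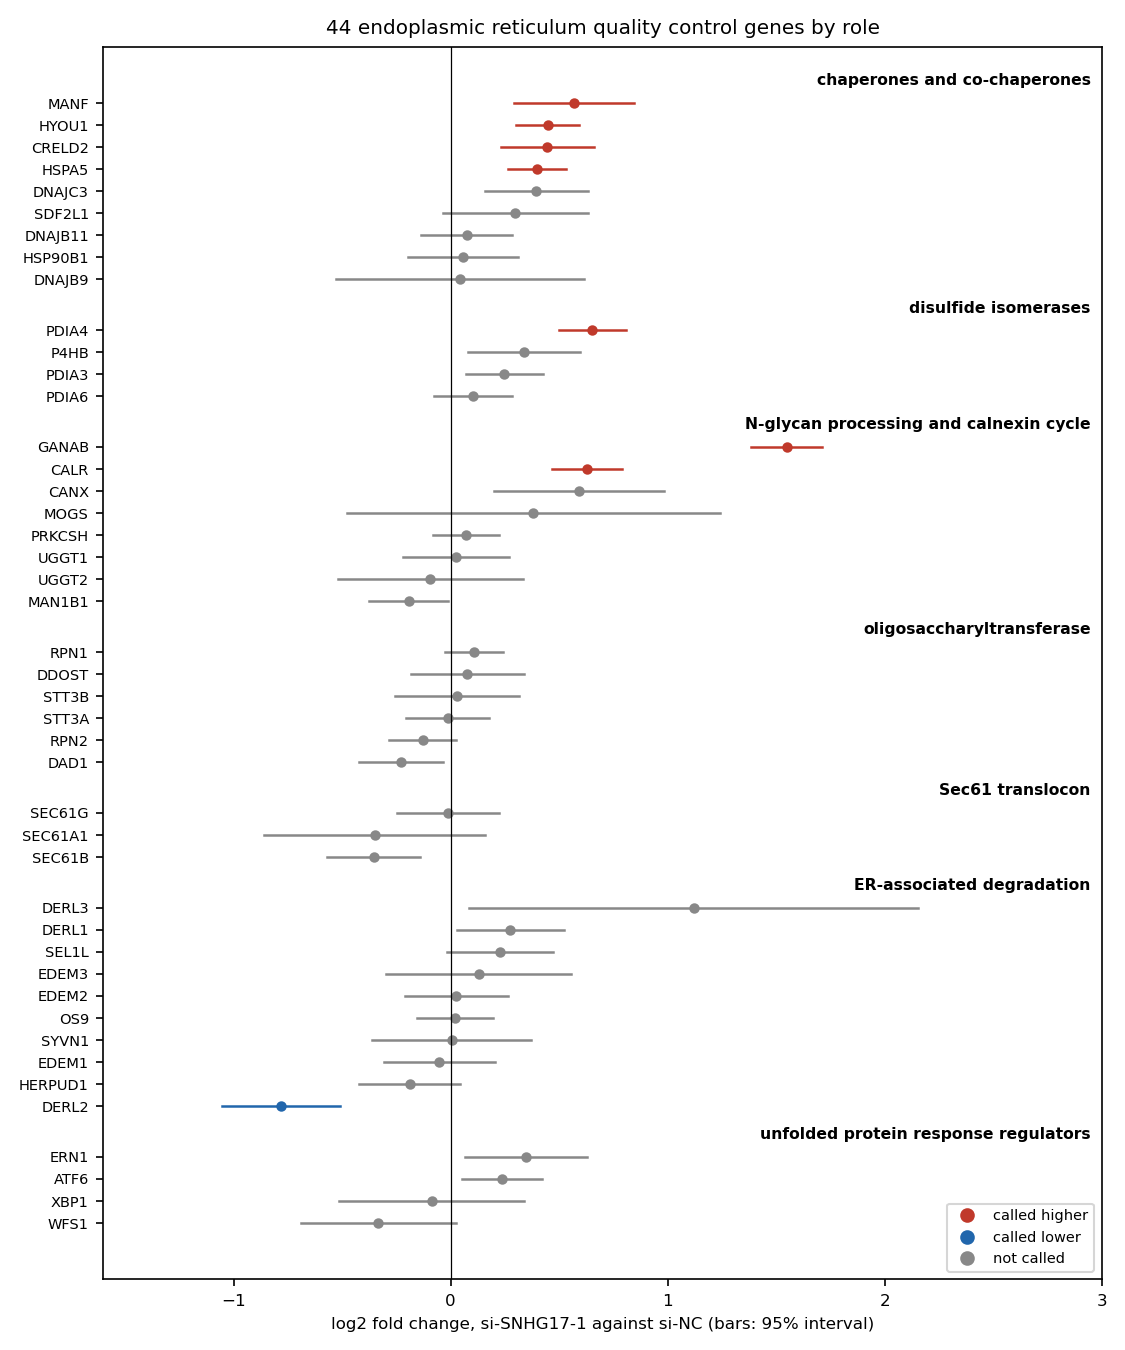
Log2 fold change of each of the 44 genes, si-SNHG17-1 against si-NC, with its 95% interval from the edgeR fit, grouped by role. Red marks the 7 called higher, blue the 1 called lower and grey the 36 not called. GANAB stands apart at 1.55, and every other called gene that rose lies between 0.40 and 0.65.

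Summed in each library, the 44 genes held 1.03%, 1.05% and 1.04% of all counts in si-NC against 1.34%, 1.29% and 1.31% after si-SNHG17-1. CANX, CALR, GANAB and HSPA5 made up 76.7% of the net gain in summed CPM, although CANX itself was not called. Relative abundance was compared between genes as CPM per kilobase of merged exons. On that scale CALR was the most abundant in si-NC at 343, followed by HSPA5 at 292, CANX at 186, RPN2 at 160 and HSP90B1 at 149.96, and the first 3 kept their order in si-SNHG17-1 at 531, 385 and 281. DERL3 was the least abundant at 0.111, below ERN1 at 2.76.

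Among 9 chaperones and co-chaperones, HSPA5, HYOU1, MANF and CRELD2 rose and the other 5, the J-domain partners of BiP among them, were not called. That is 44.4% called, where 10.5% of all genes tested were called and 5.25% were called higher. All 9 log2 fold changes were positive, also with both other scalings of the libraries, no gene fell, and the median was 0.39 on the log2 scale. Of all 18679 genes tested, 9311 had a positive log2 fold change. With a library left out, the values of HSP90B1 and DNAJB9 went as low as −0.02 and −0.22, so those signs were not stable. HSPA5, which encodes BiP, the HSP70 chaperone of the ER lumen, was at 1173, 1076 and 1177 CPM in si-NC and at 1557, 1460.0 and 1501 CPM in si-SNHG17-1. Each si-SNHG17-1 library lay above each si-NC library, a 1.32-fold rise (log2 fold change 0.40, standard error 0.06, adjusted p = 0.00741). HYOU1, a large HSP70 relative that exchanges nucleotide on BiP, was at 277, 266 and 276 CPM in si-NC and at 389, 365 and 363 CPM in si-SNHG17-1. The gap between the groups exceeded the spread within either of them (1.36-fold, log2 fold change 0.45, standard error 0.06, adjusted p = 0.00654). Exons of HYOU1 overlap the antisense gene AP003392.3 over 8.66% of their length, and that gene had a log2 fold change of 0.40 without a call (adjusted p = 0.0604).

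MANF, a small secreted protein of the ER that binds BiP, was at 83.0, 85.2 and 109.6 CPM in si-NC and at 140.5, 129 and 142 CPM in si-SNHG17-1. Replicate 3 was the highest of si-NC and still under all si-SNHG17-1 libraries (1.48-fold, log2 fold change 0.57, standard error 0.12, adjusted p = 0.027). CRELD2, a luminal protein with EGF-like repeats, was at 31.95, 33.7 and 34.5 CPM in si-NC and at 45.2, 47.0 and 44.02 CPM in si-SNHG17-1. The groups did not overlap, and the rise was 1.36-fold (log2 fold change 0.44, standard error 0.09, adjusted p = 0.0259). Both calls were fragile. With 1 library left out, MANF kept its call only without si-NC replicate 3, and CRELD2 in none of the 6 fits, with adjusted p up to 0.0968 and 0.0982, both without si-SNHG17-1 replicate 1. Exons of CRELD2 overlap ALG12 on the opposite strand over 3.25% of their length, and ALG12 was not called (log2 fold change 0.06).

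DNAJC3, a J-domain co-chaperone of BiP, was at 57.0, 53.8 and 49.6 CPM in si-NC and at 71.7, 63.4 and 75.6 CPM in si-SNHG17-1, and narrowly missed the call (log2 fold change 0.39, adjusted p = 0.0504). SDF2L1, which partners J-domain proteins in the lumen, went from a mean of 26.5 to 32.6 CPM without a call (adjusted p = 0.233). HSP90B1, the HSP90 of the ER, differed by less than the spread between replicates, at 808, 682 and 622 CPM in si-NC and 761, 659 and 778 CPM in si-SNHG17-1. Its log2 fold change was 0.06 with a 95% interval from −0.20 to 0.31, and the difference from HSPA5 was not tested. DNAJB11 and DNAJB9, further J-domain partners of BiP, had log2 fold changes of 0.07 and 0.04. For DNAJB9 the interval ran from −0.53 to 0.61, since si-NC replicate 1 stood at 21.7 CPM against 42.1 and 43.6 CPM in the other si-NC libraries.

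Among the disulfide isomerases, which form and rearrange disulfide bonds in the lumen, 1 of 4 rose and none fell. That is 25% called, resting on 1 gene, where 10.5% of all genes tested were called. All 4 had a positive log2 fold change, also with both other scalings, with a median of 0.29, where 9311 of all 18679 genes tested had a positive one. PDIA4 was at 249.7, 246 and 265 CPM in si-NC and at 420.3, 388 and 388 CPM in si-SNHG17-1. The lowest si-SNHG17-1 library was far above the highest si-NC library (1.57-fold, log2 fold change 0.65, standard error 0.07, adjusted p = 0.00259). P4HB, the founding member, was at 477, 503 and 605 CPM in si-NC and at 634, 748 and 619 CPM in si-SNHG17-1, without a call (log2 fold change 0.34, adjusted p = 0.1004). PDIA3, which works with calnexin and calreticulin, was at 462, 534 and 548 CPM in si-NC and at 612, 621 and 599.9 CPM in si-SNHG17-1 (0.25, adjusted p = 0.0807). Neither gene's groups overlapped. PDIA6, at a mean of 458 and 491 CPM, had overlapping groups and a 95% interval from −0.08 to 0.28. Exons of PDIA6 overlap ATP6V1C2 on the opposite strand over 25.2% of their length, and that gene varied from 7.66 to 103 CPM within si-NC. In si-SNHG17-1, ATP6V1C2 was at 7.80, 2.75 and 5.24 CPM, without a call (log2 fold change −3.11, adjusted p = 0.0665). Exons of P4HB overlap the antisense gene AC145207.3, which was called higher (0.37, adjusted p = 0.0421), and reads of such pairs cannot be told apart where counting ignores strand.

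**Figure D2:**
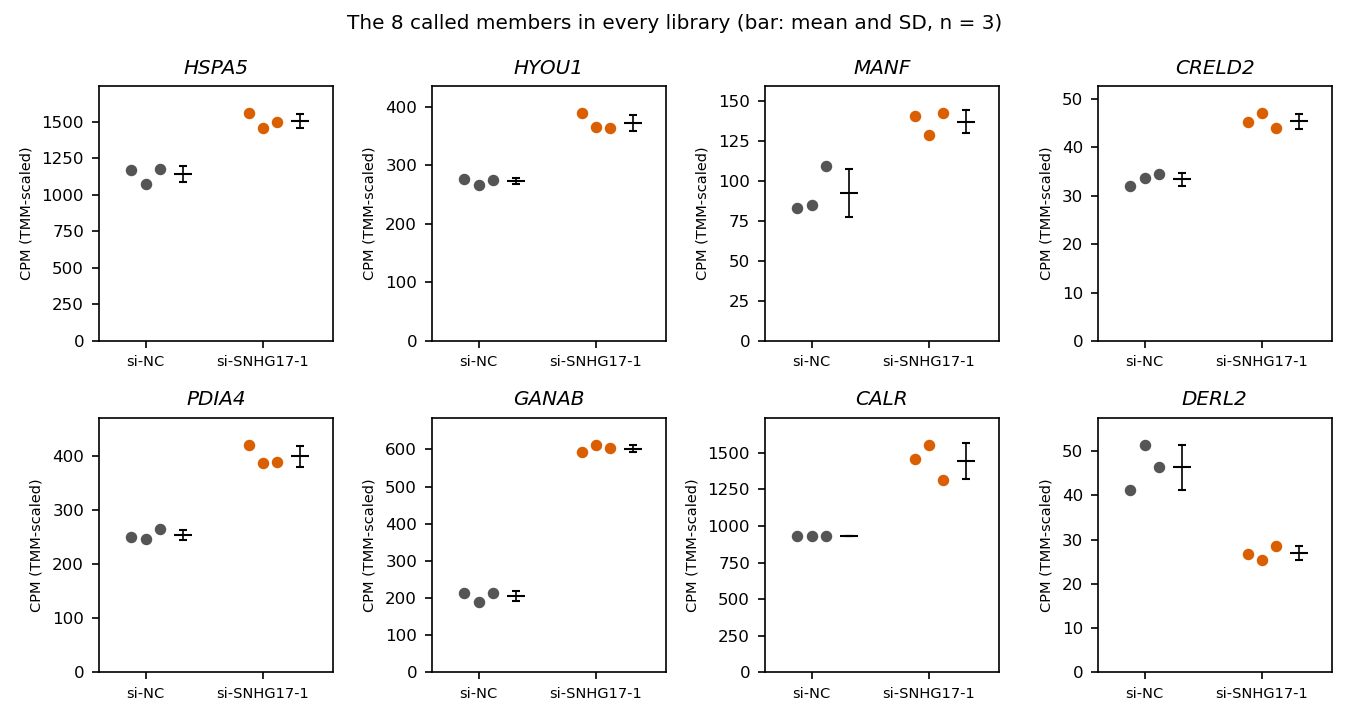
CPM (TMM-scaled, linear axis from 0) of the 8 called genes in each of the 3 si-NC libraries (grey) and 3 si-SNHG17-1 libraries (orange), with mean and SD beside the points. GANAB goes from 189.8 to 214 CPM in si-NC to 592 to 612 CPM in si-SNHG17-1, and DERL2 is the only panel in which the orange points lie below the grey ones.

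N-glycan processing held the largest change of all 44 genes, and it concerned 1 subunit of a heterodimer. GANAB encodes the catalytic alpha subunit of glucosidase II, which removes the inner glucoses that let a glycoprotein enter and leave the calnexin cycle. It was at 213, 189.8 and 214 CPM in si-NC and at 592, 612 and 603 CPM in si-SNHG17-1, so that the least of the 3 si-SNHG17-1 libraries held more than any si-NC library by a wide margin. The means were 206 ± 13.9 and 602 ± 10.2 CPM (SD, n = 3 each). The rise was 2.93-fold (log2 fold change 1.55, standard error 0.07, 95% interval 1.38 to 1.71, adjusted p = 0.000184). By p-value GANAB ranked 4th of all 18679 genes tested, while 75 genes called higher had a larger fold change. With a library left out the log2 fold change stayed between 1.49 and 1.58.

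PRKCSH, the beta subunit that holds GANAB in the ER and recognises mannose, was at 270.4, 251 and 263 CPM in si-NC and at 266, 283 and 275 CPM in si-SNHG17-1. Its groups overlapped, and its log2 fold change of 0.07 had a 95% interval from −0.08 to 0.22. The count of GANAB divided by that of PRKCSH in the same library needs no scaling. This ratio was 0.789, 0.755 and 0.815 in si-NC against 2.22, 2.16 and 2.19 after si-SNHG17-1, a 2.79-fold difference of the means. The groups did not overlap, and the exact permutation test, two-sided, returned p = 0.1, below which a design of 3 and 3 libraries cannot go. Per kilobase of exon, GANAB was below PRKCSH in si-NC (40.9 against 50.6 CPM) and above it in si-SNHG17-1 (119.8 against 53.2 CPM).

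GANAB (ENSG00000089597.16) is a minus-strand gene of chromosome 11 (GRCh38, start 62624826, end 62646726), and none of its exons overlaps another annotated gene. Of its neighbours within 20 kb, looked at after its own values were seen, none was called higher and C11orf98 was called lower (−0.57, adjusted p = 0.0422). That call held in none of the 6 fits with a library left out. B3GAT3, on one side, had a log2 fold change of 0.00 (adjusted p = 0.992), and INTS5, on the other, −0.14 (adjusted p = 0.540).

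MOGS encodes glucosidase I, which takes off the outermost glucose before glucosidase II acts. It was at 89.3, 45.8 and 103 CPM in si-NC and at 113, 58.6 and 139 CPM in si-SNHG17-1. The spread within each group was larger than the difference between them, and replicate 2 was the lowest library of both groups. The log2 fold change of 0.38 had a standard error of 0.37 and a 95% interval from −0.48 to 1.24, which includes both no change and a rise past 2-fold.

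**Figure D3:**
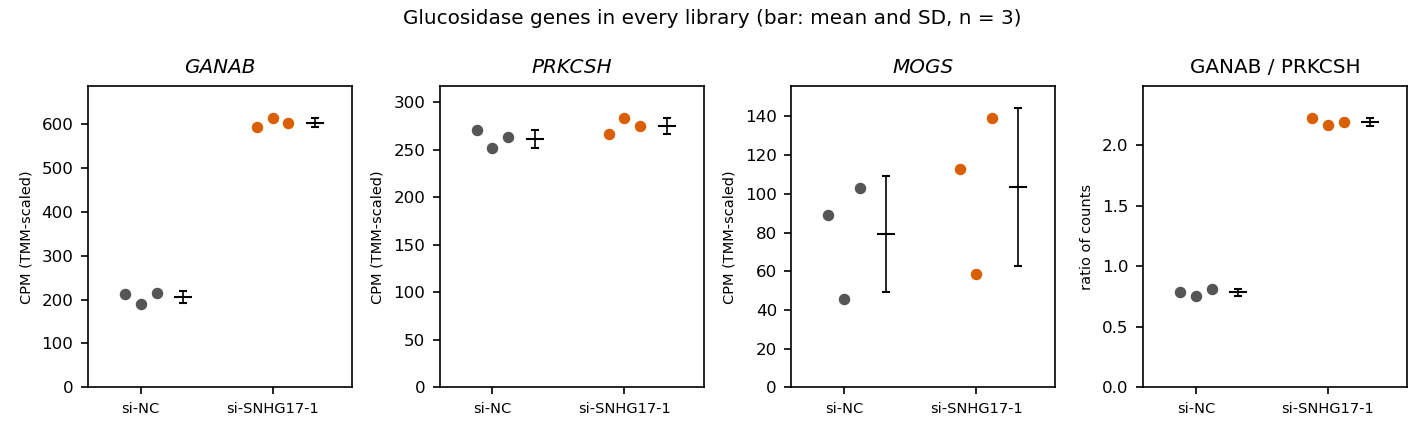
CPM (TMM-scaled, linear axes from 0) of GANAB, PRKCSH and MOGS, and the ratio of GANAB to PRKCSH counts, in each library, si-NC in grey and si-SNHG17-1 in orange, with mean and SD of 3 libraries. The ratio is 0.755 to 0.815 in si-NC against 2.16 to 2.22 after si-SNHG17-1, while PRKCSH overlaps between the groups and MOGS is lowest in replicate 2 of both.

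Of the 2 lectin chaperones that GANAB feeds, the soluble one was called and the membrane-bound one was not. CALR, which encodes calreticulin, was at 929, 932 and 934 CPM in si-NC and at 1458, 1553 and 1310.1 CPM in si-SNHG17-1. The si-NC libraries were nearly equal, and all si-SNHG17-1 libraries were higher (1.55-fold, log2 fold change 0.63, standard error 0.07, adjusted p = 0.00311). An antisense gene that overlaps 9.95% of the CALR exons, AC092069.1, was called higher as well (0.53, adjusted p = 0.0152). CANX, which encodes calnexin, was at 1031, 1523 and 931 CPM in si-NC and at 1839.5, 1706 and 1704 CPM in si-SNHG17-1. It lay above si-NC in all 3 si-SNHG17-1 libraries, with a log2 fold change of 0.59 close to that of CALR, but si-NC replicate 2 widened its standard error to 0.17 (adjusted p = 0.0665). Without that library CANX was called, at a log2 fold change of 0.83.

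The folding sensors and the mannosidase were not called. UGGT1, which reglucosylates misfolded glycoproteins, was at 174, 163 and 132 CPM in si-NC and at 159.6, 159 and 158 CPM in si-SNHG17-1 (log2 fold change 0.02, 95% interval −0.22 to 0.27). Its relative UGGT2 had −0.09 with an interval from −0.52 to 0.33. MAN1B1, the mannosidase that trims glycans of proteins held too long, lay lower in all 3 si-SNHG17-1 libraries, at 71.7, 70.6 and 76.1 against 65.3, 63.8 and 61.8 CPM, without a call (−0.19, adjusted p = 0.161). In all, 2 of the 8 genes of glycan processing and the calnexin cycle rose and none fell. That is 25% called, where 10.5% of all genes tested were called.

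None of the 6 oligosaccharyltransferase subunits was called by edgeR or DESeq2, and 1 of them, DAD1, had an unadjusted p under 0.05. This complex transfers the preassembled glycan to the nascent chain, with STT3A or STT3B as its catalytic subunit. RPN2, the gene of the complex with the highest CPM per kilobase, was at 482, 425 and 446 CPM in si-NC and at 418, 409 and 411 CPM in si-SNHG17-1, with no overlap and no call (log2 fold change −0.13, adjusted p = 0.268). RPN1, with the highest CPM of the complex over the 6 libraries, was at 444, 440.3 and 468 CPM in si-NC and at 492, 485 and 479.9 CPM in si-SNHG17-1 (0.11, adjusted p = 0.277). The 95% intervals of both included 0. DAD1, a small subunit, had −0.23 (adjusted p = 0.129), DDOST 0.08, STT3B 0.03 and STT3A −0.01, the last of which was positive with total counts only. Over the 6 subunits, the 95% intervals ran from −0.42 to 0.34 at their widest.

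The Sec61 channel had the lowest median of the 7 role groups, −0.35, with no call among its 3 subunits, although SEC61B had an unadjusted p under 0.05 and was called by DESeq2. SEC61B, the beta subunit, was at 57.4, 55.4 and 63.9 CPM in si-NC and at 46.4, 44.8 and 47.0 CPM in si-SNHG17-1. All si-SNHG17-1 libraries were lower, and the adjusted p was 0.0517 at a log2 fold change of −0.35. SEC61A1, which encodes the pore itself and had the highest CPM of the 3, was at 493, 380.2 and 521 CPM in si-NC and at 327, 274 and 493 CPM in si-SNHG17-1. Here si-SNHG17-1 replicate 3 lay within the si-NC range, and the 95% interval ran from −0.86 to 0.16. Its exons overlap RUVBL1 on the opposite strand over 7.32% of their length, and RUVBL1 was called lower (−0.36, adjusted p = 0.0213). SEC61G had a log2 fold change of −0.01, which was positive with total counts only.

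Of 10 genes of ER-associated degradation, which draws failed proteins out to the proteasome, 1 fell and none rose. That is 10% called, near the 10.5% of all genes tested. DERL2 encodes a derlin, a membrane protein of the retrotranslocation complex. It was at 41.3, 51.4 and 46.4 CPM in si-NC and at 26.8, 25.4 and 28.6 CPM in si-SNHG17-1. The groups did not overlap, and the log2 fold change was −0.78 (standard error 0.12, adjusted p = 0.00865), a 1.72-fold lower level. Exons of DERL2 overlap MIS12 on the opposite strand over 4.71% of their length. MIS12 ranged from 23.3 to 60.9 CPM over the libraries and was not called. Without si-SNHG17-1 replicate 1 the adjusted p of DERL2 was 0.0534. DERL1, its paralog, went the other way without a call, at 69.2, 83.0 and 65.1 CPM in si-NC and 85.7, 86.8 and 90.4 CPM in si-SNHG17-1 (log2 fold change 0.27, 95% interval 0.03 to 0.52, adjusted p = 0.144). The intervals of DERL1 and DERL2 do not overlap, and the difference between them was not tested. DERL3 was scarce, with 19, 19 and 12 counts in si-NC against 31, 38 and 32 after si-SNHG17-1, and 77.0% of its exonic length overlaps SMARCB1 on the opposite strand, so its log2 fold change of 1.119 (adjusted p = 0.156) is uncertain.

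The rest of the degradation pathway was not called. SEL1L and SYVN1, the adaptor and ubiquitin ligase of the HRD1 complex, had log2 fold changes of 0.23 and 0.00. OS9, a lectin that delivers trimmed glycoproteins to them, was at 132, 118 and 129 CPM in si-NC and at 129, 127 and 128 CPM in si-SNHG17-1 (0.02, 95% interval −0.15 to 0.19). HERPUD1, a stress-induced membrane protein of the same complex, had −0.19 (adjusted p = 0.275). EDEM1, EDEM2 and EDEM3, which trim mannose on proteins bound for degradation, had −0.05, 0.03 and 0.13.

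The 4 regulators were not called by edgeR or DESeq2, and 2 of them, ERN1 and ATF6, had an unadjusted p under 0.05. ERN1 encodes IRE1, the sensor that splices the XBP1 messenger, and was at 32.1, 32.1 and 25.6 CPM in si-NC and at 37.3, 38.9 and 37.96 CPM in si-SNHG17-1. ATF6, the sensor that is cleaved into a transcription factor, was at 166, 172 and 148 CPM in si-NC and at 197, 185 and 191 CPM in si-SNHG17-1. Both lay above si-NC in all 3 libraries, with log2 fold changes of 0.35 and 0.24 (adjusted p = 0.113 and 0.104). XBP1, at 266, 209 and 321 CPM in si-NC and 269.5, 198 and 283 CPM in si-SNHG17-1, varied more within groups than between them, again with replicate 2 lowest in both. WFS1, an ER membrane protein that restrains ATF6, had −0.33 (adjusted p = 0.216). Counts per gene do not show XBP1 splicing or ATF6 cleavage, so the activity of either arm was not measured.

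Promoters of some ER chaperone genes carry the ER stress response element (ERSE), which ATF6 and XBP1 bind. The element was first described in promoters of this gene family, so its presence is no independent observation. It was searched as CCAAT and CCACG separated by any 9 bases, on both strands, in RefSeq promoter windows (GRCh38.p14) from 250 bases before to 50 after an annotated start. A gene could have several such windows (35116 windows for 27305 genes), and windows were given for 38 of the 44 genes. The ERSE was found in 7 of these 38 genes (18.4%) and in 25 of all 27305 genes with a window (0.0916%). Among the 7 were 3 genes that rose, HSPA5, CALR and CRELD2, and 4 that were not called, HSP90B1, CANX, PDIA6 and XBP1. The sites of CANX and PDIA6 belong to starts far inside the gene as counted, whose outer starts are at 179678628 and 10837977. Their sites are shown 5′ to 3′ because they set the called and uncalled carriers side by side, and capitals mark the CCAAT and CCACG parts.

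HSPA5, rose, chr9:125241391-125241409, minus strand: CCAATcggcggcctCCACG
CALR, rose, chr19:12938384-12938402, minus strand: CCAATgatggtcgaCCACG
CRELD2, rose, chr22:49918554-49918572, minus strand: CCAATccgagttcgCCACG
CANX, not called, chr5:179698778-179698796, plus strand: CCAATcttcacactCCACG
HSP90B1, not called, chr12:103930216-103930234, plus strand: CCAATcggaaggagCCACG
HSP90B1, not called, chr12:103930321-103930339, minus strand: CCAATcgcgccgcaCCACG
PDIA6, not called, chr2:10812853-10812871, minus strand: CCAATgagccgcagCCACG
XBP1, not called, chr22:28800603-28800621, minus strand: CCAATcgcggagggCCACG

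A shorter form, ERSE-II, was searched as ATTGG and CCACG separated by 1 base, and was found in HYOU1, SDF2L1 and HERPUD1 of the 38 genes and in 19 of all 27305 genes (0.0696%). HYOU1, which rose, held it at a pair of places, and also held TGACGTGG, a core of the unfolded protein response element, overlapping one of them. That core was in 0.927% of all genes. With the 3 motifs pooled, 10 of 38 genes held at least 1 match, namely 4 of the 7 that rose and 6 of the 30 that were not called. The median log2 fold change was 0.35 over the 10 genes with a match and 0.03 over the 28 without one. These medians do not separate match from role. HSPA5, HYOU1, CRELD2, SDF2L1 and HSP90B1 of the 10 belong to the chaperone group, which had a median of 0.39. The others were CALR, CANX, PDIA6, XBP1 and HERPUD1. GANAB, PDIA4 and MANF rose and had no match in these windows, as had DERL2, which fell. A match is a description of letters and not a site in use.

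Other genes of the same pathway, in 8 lists with 149 genes of which 147 were tested, moved in both directions, 20 higher and 11 lower. That is 21.1% called, against 10.5% of all genes tested, with a median log2 fold change of 0.06. These lists too were chosen with earlier results known and without genes of like abundance beside them, so the shares are a description. Higher and lower genes numbered 17 and 11 without si-NC replicate 1, 18 and 5 without replicate 2, and 12 and 9 without replicate 3. They numbered 10 and 3 without si-SNHG17-1 replicate 1, 10 and 4 without replicate 2, and 9 and 5 without replicate 3. Of the 31 calls, 11 held whichever of the 6 libraries was left out, and the single genes given below with values for every library are among these 11.

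The thiol-disulfide enzymes had the most rises, 7 of 18 tested with 1 fall and a median of 0.32. That is 44.4% called, where 10.5% of all genes tested were called and 5.25% were called higher. PDIA5, a disulfide isomerase, was at 44.6, 41.7 and 40.2 CPM in si-NC and at 68.7, 72.8 and 68.0 CPM in si-SNHG17-1 (1.66-fold, adjusted p = 0.00408). TXNDC12, a thioredoxin-like protein of the lumen, was at 56.6, 63.5 and 66.5 CPM in si-NC and at 102, 101 and 95.5 CPM in si-SNHG17-1 (1.599-fold, adjusted p = 0.00538). PRDX4, the peroxiredoxin of the ER, was at 89.5, 84.6 and 83.1 CPM in si-NC and at 162, 132 and 135 CPM in si-SNHG17-1 (1.67-fold, adjusted p = 0.00548). The groups of all 3 were fully separate. The exception in direction was VKORC1, which recycles vitamin K, at 135, 136 and 175 CPM in si-NC and 81.9, 90.2 and 79.3 CPM in si-SNHG17-1 (1.77-fold lower, adjusted p = 0.00767). ERP44, TMX3, TMX4 and ERO1A, the last of which oxidises disulfide isomerases, were the other rises of this list, and each lost its call in at least 1 fit with a library left out.

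Among 30 further chaperones and prolyl isomerases, 5 rose and 1 fell, 20% called where 10.5% of all genes tested were called. CALU, a calcium-binding protein of the secretory pathway, was at 260.2, 252 and 216 CPM in si-NC and at 367, 378 and 391 CPM in si-SNHG17-1 (1.56-fold, adjusted p = 0.00546). Its relative RCN3 was scarcer and rose 2.28-fold, from 5.76, 5.44 and 6.58 CPM to 12.1, 13.4 and 15.04 CPM (adjusted p = 0.00545). Every si-SNHG17-1 library was above every si-NC library for both. PPIB, a cyclophilin, rose by a log2 fold change of 0.33, and TOR1A fell by 0.32, calls that held in 1 and none of the 6 fits with a library left out.

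Genes that build or remodel the glycan moved both ways. Of 24 genes of dolichol-linked assembly 2 rose and 2 fell, and of 13 genes of later trimming and cargo lectins 1 rose and 2 fell. That is 16.7% and 23.1% called, where 10.5% of all genes tested were called, 5.25% higher and 5.21% lower. ALG2, a mannosyltransferase of the assembly line, was at 68.6, 81.5 and 76.3 CPM in si-NC and at 43.7, 43.1 and 36.7 CPM in si-SNHG17-1 (1.83-fold lower, adjusted p = 0.00477). MAN2A1, the Golgi alpha-mannosidase II, was at 91.9, 105.9 and 88.6 CPM in si-NC and at 46.7, 42.6 and 53.3 CPM in si-SNHG17-1 (2.01-fold lower, adjusted p = 0.00371). Both were thus lower in all 3 si-SNHG17-1 libraries, while GANAB, which acts between them in the order of the pathway, was higher. NGLY1, the cytosolic enzyme that strips glycans from degraded proteins, had a log2 fold change of −0.64, and ALG8, a glucosyltransferase of assembly, −0.46. The rises were DPM2 (0.52), ALG10B (0.58) and MAN1A1 (0.62), and these 5 calls held in 1 or 2 of the 6 fits with a library left out. OSTC was the only one of 6 further oligosaccharyltransferase subunits to be called (0.54, adjusted p = 0.0433, a call that held only without si-NC replicate 1). That is 16.7% called, from 1 gene.

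In the degradation and regulator lists, single pairs split. The paralogs ERLIN1 and ERLIN2, whose products assemble together in ER membrane rafts, went in opposite directions. ERLIN1 was at 53.8, 53.9 and 55.5 CPM in si-NC and at 102, 99.3 and 100.2 CPM in si-SNHG17-1 (1.85-fold higher, adjusted p = 0.00122). ERLIN2 went from a mean of 60.8 to 38.7 CPM (log2 fold change −0.65, adjusted p = 0.0108), a call lost without si-SNHG17-1 replicates 1 or 3. They were the only calls of 23 further degradation genes, 8.70% called where 10.5% of all genes tested were called. Of 11 further regulators 3 rose and 2 fell, 45.5% called where 10.5% of all genes tested were called. PPP1R15A, the stress-induced cofactor that dephosphorylates eIF2alpha, rose 1.68-fold from 96.8, 84.5 and 84.4 CPM to 144, 157 and 146 CPM (adjusted p = 0.00371). Its constitutive relative PPP1R15B fell (log2 fold change −0.43, adjusted p = 0.0109, lost without si-SNHG17-1 replicates 1 or 2). CREB3L2, a membrane-bound transcription factor processed like ATF6, was at 90.4, 114 and 107 CPM in si-NC and at 179, 178 and 176 CPM in si-SNHG17-1 (1.71-fold, adjusted p = 0.00474). MBTPS1, a protease that processes ATF6, rose and ATF6B, a relative of ATF6, fell (0.34 and −0.34), each call holding in 1 of the 6 fits. Of 22 further genes of translocation none rose and 2 fell, 9.09% called, again near the 10.5% of all genes tested. The 2 were SRP72 and SRP54, both subunits of the signal recognition particle (−0.35 and −0.43, calls that held in 2 and 1 of the 6 fits with a library left out).

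**Figure D4:**
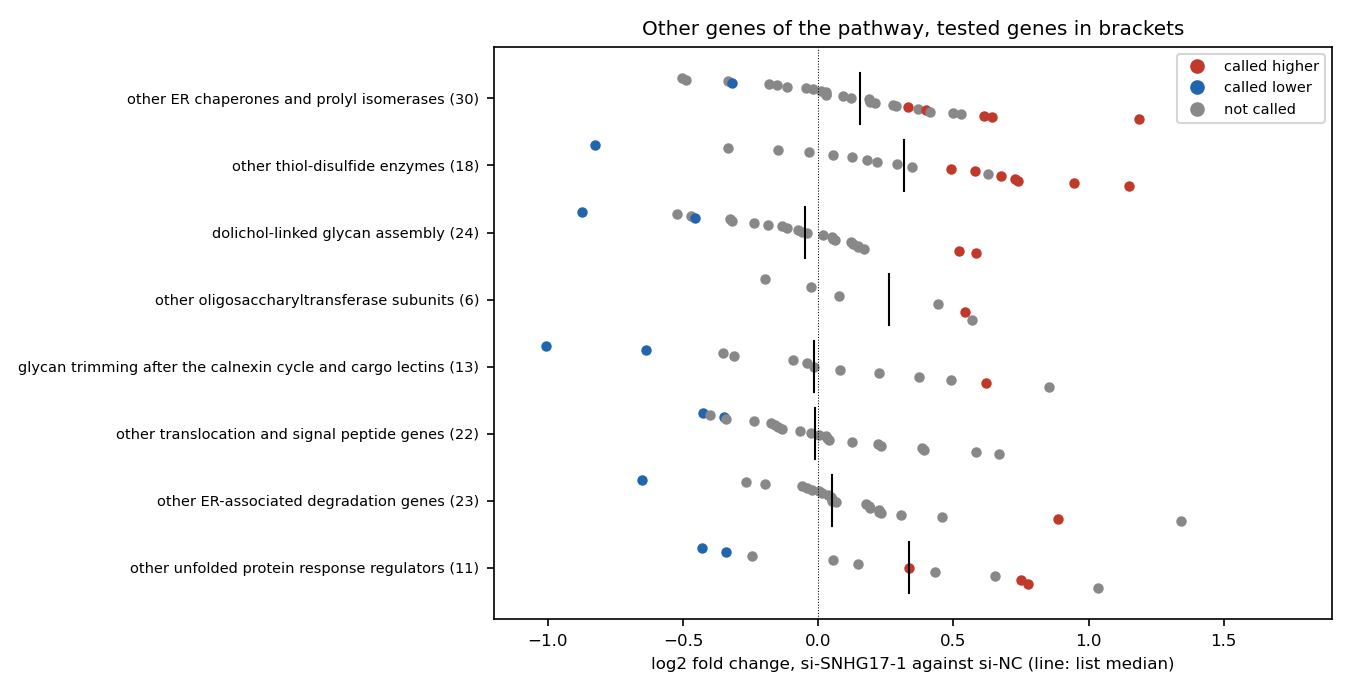
Log2 fold change of each tested gene in the 8 lists of other pathway genes, si-SNHG17-1 against si-NC, with the number tested in brackets and the median of each list as a black line; red marks genes called higher and blue genes called lower. The thiol-disulfide enzymes have 7 red points of 18 and a median of 0.32, and MAN2A1 is the lowest blue point at −1.01. Over all genes tested, 5.25% were called higher and 5.21% lower.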

How the data were processed

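The authors deposited a table of raw counts per gene, aligned with HISAT2 to GRCh38 per the submitters' processing notes. For the HISAT2 version, counting program, annotation release and strand setting: not given in the sources used here. Columns were matched to samples by title. Counts were tested with edgeR 4.0.16 in R 4.3.3: filterByExpr defaults (minimum count 10, minimum total 15), TMM scaling, quasi-likelihood F test without a replicate block, and Benjamini-Hochberg adjustment over 18679 genes. The standard error was taken as the size of the log2 fold change over sqrt(F), and 95% intervals use the fit's degrees of freedom. CPM values are TMM-scaled, except those of cell markers. Exon lengths and overlaps come from GENCODE 29, which may differ from the annotation counted, and promoter windows from RefSeq. Alternatives were other scalings, filters, DESeq2 1.42.0, limma-voom (limma 3.58.1), a replicate block and each library left out.

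The 44 genes and the lists were chosen with earlier results of these data known. Library values are given for every called gene, for the most abundant gene of role groups without a call, and for further genes chosen after their values were seen; of the other pathway lists, named calls are at most 3 per direction with the smallest adjusted p, plus ERP44, TMX3, TMX4 and ERO1A. All 44 genes and all 149 other pathway genes were matched, MARCH6 by gene ID. ER retention tails were not analysed here.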

Additional observations from a re-analysis of the deposited data

How the results depend on the processing

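With median-of-ratios size factors, total counts, a minimum of 1 CPM (3 libraries or more), no filter, DESeq2 and limma-voom, the 8 calls kept their direction and their call. These settings called 8 to 11 of the 44 genes, and the additions were DNAJC3, CANX and SEC61B, so the genes lower numbered 2 with the 1 CPM filter and with DESeq2. Without a filter the other pathway genes called lower numbered 6 instead of 11. With a library left out, 5 to 7 of the 44 genes were called, no called gene changed sign, and HSPA5, HYOU1, PDIA4, GANAB and CALR kept the call each time. In those fits the genes higher numbered 5 to 6 and lower 0 to 1, the chaperones higher 2 to 3, the other pathway genes higher 9 to 18 and lower 3 to 11, with fewer libraries in each fit.

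Over all genes tested, same-numbered replicates did not deviate together (correlations of −0.02, −0.04 and −0.02, and no library correlated best with its own number). Single genes could differ from this, as MOGS and XBP1 were lowest in replicate 2 of both groups. With the replicate block, 2 chaperones were higher, MANF and CRELD2 losing the call (adjusted p = 0.0592 and 0.104), and 9 of the other pathway genes were higher and 4 lower. HSPA5, HYOU1 and DERL2 kept the call close to the threshold (adjusted p = 0.0404, 0.0492 and 0.0497). The adjusted p of GANAB, CALR and PDIA4 was 0.00839, 0.0279 and 0.0330 with this block. Over all genes, 273 were then higher and 259 lower, without a filter 670 and 627, and with total counts 1168 and 781, against 980 and 974. With a library left out they were 313 to 694 higher and 264 to 705 lower. DERL3 had 12 to 38 counts per library, the fewest of the 44 genes, and the part of depth in any call was not tested.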
